A study of Homo sapiens with 6 samples.

Results

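The RNAs described here are 6 short structural RNAs of human cells. They are the 7SL copies RN7SL1, RN7SL2 and RN7SL3, the 7SK RNA RN7SK, the RNase MRP RNA RMRP and the RNase P RNA RPPH1. They were taken from a table of 58825 genes by matching its Ensembl identifiers to these symbols in GENCODE version 44, and all 6 were found. The 6 were chosen by their levels in earlier results of the comparison described here. The table holds read counts of RNA from HGC-27, an established line from an undifferentiated human gastric cancer, in 6 libraries. In 3 libraries the cells overexpressed GC0643, and in 3 they carried the vector alone. GC0643 is a predicted gene in sequence missing from the human reference genome. The methods describe stable lines with GC0643, made by retroviral infection and puromycin selection, and do not say how the vector line was made. All cells grew in RPMI-1640 medium with fetal bovine serum. Whether each line was a clone or a pool, and whether the 3 libraries of a group came from separate cultures, was not given in the sources used here. The p-values below therefore measure the spread between these libraries, which may be technical. The transcript of GC0643 was not analysed here, so no targeted gene checks the labels.

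7SL RNA is the scaffold of the signal recognition particle, which binds the signal sequence of a growing secretory or membrane protein and brings its ribosome to the endoplasmic reticulum. 7SK RNA holds the elongation factor P-TEFb, a pair of CDK9 and a T-type cyclin, in an inactive complex and so restrains transcription by RNA polymerase II. RMRP and RPPH1 are the catalytic RNAs of RNase MRP, which cuts ribosomal RNA precursors, and of RNase P, which trims the leader from transfer RNA precursors. RNA polymerase III makes all of them, and they end without a poly(A) tail, unlike most mRNAs.

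The 3 copies of 7SL were nearly the same RNA, which limits how far reads can be told apart. RN7SL1 lies at chr14:49586580-49586878 on the plus strand, inside an intron of RPS29, a ribosomal protein gene of the opposite strand. RN7SL2 lies at chr14:49862550-49862849 and RN7SL3 at chr14:49853616-49853914, both on the minus strand. RN7SL3 is 794 bases from NEMF, a gene of ribosome quality control, and RN7SL2 overlaps an exon of a long noncoding RNA, ENSG00000282885, which had 6 to 18 counts per library.

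In GRCh38 with the GENCODE spans, RN7SL1 and RN7SL2 were 98.3% identical, with 4 substitutions and 1 base found only in RN7SL2. RN7SL1 and RN7SL3 were 97.7% identical, with 7 substitutions, and RN7SL2 and RN7SL3 were 96.0% identical, with 11 substitutions and 1 base only in RN7SL2. Among all windows of 50 bases, 64.8% of those in RN7SL3, 15.6% in RN7SL1 and 13.5% in RN7SL2 were found in none of 975 other annotated transcripts searched, those of the 7SL and 7SK families and the other members, on the same strand. At 150 bases the shares were 100% for RN7SL3, 34.0% for RN7SL1 and 34.4% for RN7SL2. Counts of RN7SL1 and RN7SL2 are thus uncertain as values of a single copy, since the way reads with several matches were assigned in these libraries was not given in the sources used here. The methods state unique mapping and counting at every overlapping gene for the tumour RNA libraries, which are others than these.

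**Figure D1:**
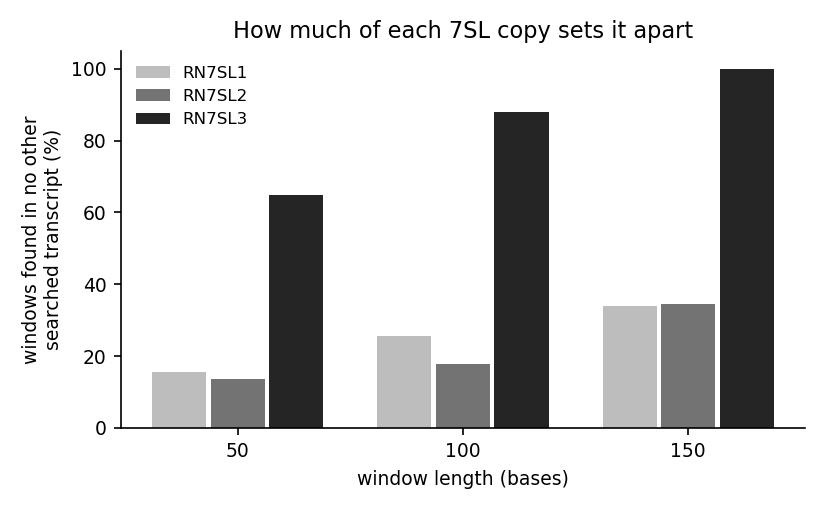
Share of all windows (y axis, percent) of 50, 100 or 150 bases (x axis) in each 7SL copy that occur in none of the 975 other transcripts searched. RN7SL3 has the highest bar at each length, 64.8% at 50 bases and 100% at 150 bases.

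RN7SK lies at chr6:52995621-52995948 on the plus strand, 316 bases from GSTA4, a glutathione transferase gene. The first 120 of its 328 bases in GRCh38 are shown because its 5′ hairpin holds the repeated GATC, GAUC in the RNA, to which HEXIM proteins bind. Capitals mark GATC, a word that reads the same on both strands.
RN7SK: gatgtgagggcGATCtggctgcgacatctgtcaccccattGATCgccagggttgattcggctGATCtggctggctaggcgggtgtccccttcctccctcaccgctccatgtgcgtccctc

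GATC was found 3 times in the whole RNA, starting at positions 12, 41 and 63. For comparison, 56.7% of 19944 protein-coding transcripts held at least 1 GATC in their first 328 bases, and 6.19% held 3 or more. A match of 4 letters is only a description of the sequence. RMRP lies at chr9:35657754-35658017 on the minus strand, 272 bases from CCDC107. RPPH1 lies at chr14:20343075-20343407 on the minus strand, 207 bases from PARP2 and inside an exon of the long noncoding RNA ENSG00000259001.

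The libraries held between 20376722 and 24069166 counts, and the 6 RNAs together took 0.0304% to 0.0831% of them. Levels are given in CPM, the read count over the library total after TMM scaling, and a negative log2 fold change means a lower level with GC0643 than with vector. Of 19528 genes tested with edgeR's quasi-likelihood test, 0 passed an adjusted p of 0.05 (0%), 3581 (18.3%) had an unadjusted p under 0.05, and the other tools called 16 (edgeR likelihood ratio test), 1 (DESeq2) and 0 (limma voom) by adjusted p. The library of vector replicate 2 was nearer in its counts to GC0643 replicates 2 and 3 than to the other vector libraries. The mean squared difference over that expected from counting was 4.62 and 5.00 for the former pairs and 12.8 and 45.4 for the latter, and for vector replicate 3 it was at least 18.5 against any library. Without vector replicate 2, 3813 genes passed the adjusted p. Fold changes also moved with base composition, from a median log2 of 0.35 over 2872 genes with under 40% G and C to -0.22 over 3204 genes with over 60%. Since the 6 RNAs hold between 58.2% (RN7SK) and 64.6% (RPPH1) G and C, log2 fold changes after a correction for it are given beside the main ones for the 4 that passed the filter on low counts. The correction was not made for RMRP, RPPH1, the summed copies or the ratio of 7SL to mRNAs. The cells held 62149 to 74279 counts of the mesenchymal gene VIM, 30392 to 43621 of COL1A1 and 1736 to 3430 of COL1A2. Of the epithelial genes KRT8 had 83 to 159 counts, while EPCAM and CDH1 did not exceed 9 in any library. KRT18 had at most 3 counts and KRT19 at most 1. The gastric gene MUC6 had 4 to 20 counts, MUC5AC and TFF1 had at most 1 and TFF2 and GKN1 had 0, so the markers of gastric mucosa were absent or nearly so in this gastric line. Of the 4 markers tested, COL1A2 was higher with GC0643 at an unadjusted p under 0.05 in edgeR (log2 fold change 0.46, unadjusted p = 0.00683, adjusted p = 0.26). With the correction for base composition COL1A2 had 0.57 (edgeR unadjusted p = 0.000779), in a fit where 0 genes passed the adjusted p. The white-cell marker PTPRC had 2 to 7 counts and the markers HBB and PECAM1 had 0.

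RN7SL3 had the most negative log2 fold change of the 4 RNAs that passed the filter on low counts. It had 980, 556 and 1226 counts in GC0643 replicates 1 to 3 and 2557, 3340 and 1780 in vector replicates 1 to 3. All 3 GC0643 libraries were below all 3 vector libraries. The level was 44.1 ± 17.2 CPM with GC0643 and 121 ± 44.3 CPM with vector (mean ± SD, n = 3 each), a log2 fold change of -1.45 with an SE of 0.27. The 6 RNAs were chosen with this contrast in view, so their differences are a description and carry no test. With the correction for base composition the log2 fold change was -1.28. It lay between -1.74 without GC0643 replicate 3 and -1.18 without vector replicate 2, and was -0.92 with the correction and without vector replicate 2, a change of more than 1.5 times.

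RN7SL2 had the most counts of the 6 RNAs. They were 5355, 4141 and 7509 with GC0643 and 9083, 9269 and 9048 with vector. The groups did not overlap after scaling, although GC0643 replicate 3 at 370 CPM came close to vector replicate 3 at 376 CPM. The means were 272 ± 89.5 and 424 ± 41.8 CPM (SD, n = 3 each), with a log2 fold change of -0.64 (SE 0.18) and of -0.45 with the correction for base composition. No single library left out turned its direction, and the value lay between -0.93 without GC0643 replicate 3 and -0.47 without GC0643 replicate 2. It was -0.33 with the correction and without vector replicate 2, a change of more than 1.5 times.

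RN7SL1 overlapped between the groups. Its counts were 2860, 1866 and 4191 with GC0643 and 4171, 4505 and 3282 with vector. GC0643 replicate 3, at 207 CPM, lay above vector replicates 1 and 3, at 205 and 136 CPM. The means were 143 ± 59.8 and 187 ± 44.1 CPM (SD, n = 3 each), and the log2 fold change was -0.39 (SE 0.24), or -0.20 with the correction for base composition. The value depended on single libraries, being -0.75 without GC0643 replicate 3, -0.15 without GC0643 replicate 2 and -0.26 without vector replicate 2. With the correction and without vector replicate 2 it was 0.0041, on the other side of 0.

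RN7SK had few counts and no common direction. They were 56, 7 and 52 with GC0643 and 124, 16 and 26 with vector. Vector replicate 1 was the highest library and GC0643 replicate 2 the lowest, with the other 4 between them and the groups overlapping. The means were 1.84 ± 1.30 and 2.66 ± 2.99 CPM (SD, n = 3 each). The log2 fold change of -0.52 (SE 0.66) became 0.96 without vector replicate 1 and -0.03 without GC0643 replicate 2. It ranged down to -0.95 without vector replicate 2, and was -0.34 with the correction for base composition. Another row for the same RNA, named 7SK and spanning chr6:52995620-52995950, held the same 6 counts, so the table lists these reads at both rows.

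RMRP and RPPH1 were near the limit of detection and did not pass the filter on low counts. RMRP had 7, 6 and 10 counts with GC0643 and 42, 9 and 10 with vector. Only vector replicate 1 stood above the others, and the groups overlapped at 0.368 ± 0.111 and 0.974 ± 0.948 CPM (SD, n = 3 each). In a fit with no filter its log2 fold change was -1.38 (SE 0.47), but -0.22 without vector replicate 1. RPPH1 had 4, 4 and 3 counts with GC0643 and 16, 10 and 5 with vector. Its groups did not overlap, though GC0643 replicate 2 at 0.189 CPM and vector replicate 3 at 0.208 CPM differed by 1 count. The means were 0.174 ± 0.0230 and 0.494 ± 0.290 CPM (SD, n = 3 each), with a log2 fold change without the filter of -1.45 (SE 0.66), or -0.95 without vector replicate 1. The overlapping long noncoding RNA ENSG00000259001 held 37, 43 and 25 counts with GC0643 and 49, 48 and 29 with vector, and reads in the shared stretch cannot be told apart.

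**Figure D2:**
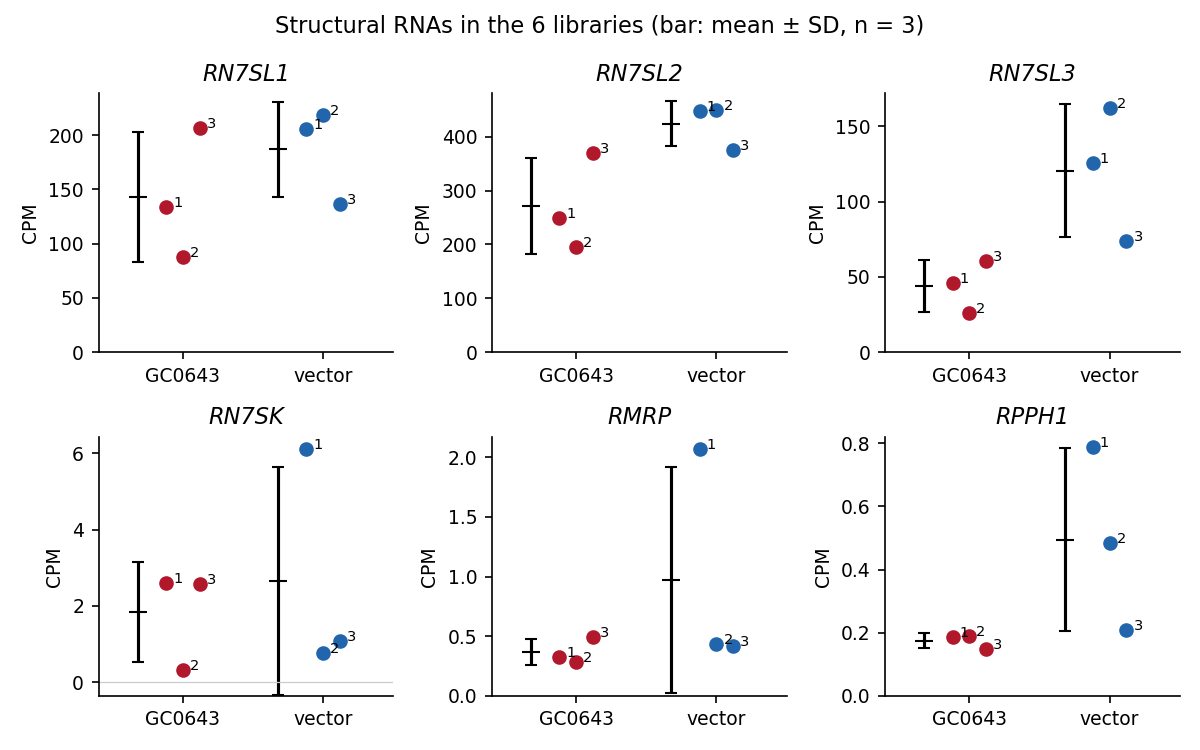
Level of each of the 6 RNAs in every library, in CPM (y axis, linear, a separate scale in each panel), for GC0643 overexpression (red) and vector (blue). Numbers are replicates and bars are mean ± SD (n = 3). RN7SL2, RN7SL3 and RPPH1 have no red point above a blue one, and in RN7SK and RMRP vector replicate 1 is the highest library.

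Of the 4 RNAs that passed the filter, RN7SL2 and RN7SL3 did not overlap between the groups and were lower with GC0643. Of all genes tested, 22.4% did not overlap between the groups and 10.5% did so with lower values under GC0643. All 4 had negative log2 fold changes, with a median over all genes tested of 0.02. In bulk RNA a lower level in each cell and fewer cells that hold the RNA cannot be told apart. A difference between libraries in the recovery of RNA without a poly(A) tail was not tested. The order of the mean levels was RN7SL2, RN7SL1, RN7SL3, RN7SK, RMRP and RPPH1 in both groups, and division by length leaves it as it is. In the vector libraries RN7SL2, at 376 to 450 CPM, lay above RN7SL1, at 136 to 219 CPM, while RN7SL1 overlapped with RN7SL3, at 74.0 to 162 CPM. In the GC0643 libraries RN7SL2, at 195 to 370 CPM, overlapped with RN7SL1, at 88.1 to 207 CPM, and RN7SL3, at 26.2 to 60.4 CPM, lay below both. RN7SK overlapped with RMRP in both groups. These overlaps are of ranges across libraries. Within every library RN7SL2 was above RN7SL1, RN7SL1 above RN7SL3, RN7SL3 above RN7SK and RN7SK above RMRP. The last pair came closest in GC0643 replicate 2, at 7 and 6 counts. RMRP was not above RPPH1 in vector replicate 2, at 9 and 10 counts.

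The 3 copies of 7SL did not differ to the same degree, and a share of their summed counts removes the size of the library. RN7SL3 made up 10.7% (95% Wilson interval 10.0 to 11.3), 8.47% (7.82 to 9.17) and 9.48% (8.99 to 10.0) of the 3 copies' counts with GC0643. It made up 16.2% (15.6 to 16.8), 19.5% (18.9 to 20.1) and 12.6% (12.1 to 13.2) with vector. The intervals cover counting error only, and the spread between libraries of a group was wider than they are. The share was added after the data were seen and uses the counts of RNAs chosen by this contrast, so it carries no test. The mean share was 9.54 ± 1.09% with GC0643 and 16.1 ± 3.45% with vector (SD, n = 3 each), and no GC0643 library reached the lowest vector library. The difference was -6.56 percentage points, and between -8.31 and -4.86 with a single library left out, the latter without vector replicate 2. RN7SL1 made up 30.7 ± 2.03% and 25.3 ± 1.79%, and RN7SL2 59.8 ± 2.85% and 58.6 ± 5.08% (SD, n = 3 each). All these are shares of counts, which also depend on how reads with several matches were assigned. For each count of RN7SL1 there were 0.343, 0.298 and 0.293 counts of RN7SL3 with GC0643 and 0.613, 0.741 and 0.542 with vector. RN7SL3 and RN7SL1 are alike in length and in G and C, at 62.2% and 62.9%. They differ in the share of 50-base windows found in no other transcript searched, at 64.8% and 15.6%. Whether any of these traits bears on the ratio was not tested.

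**Figure D3:**
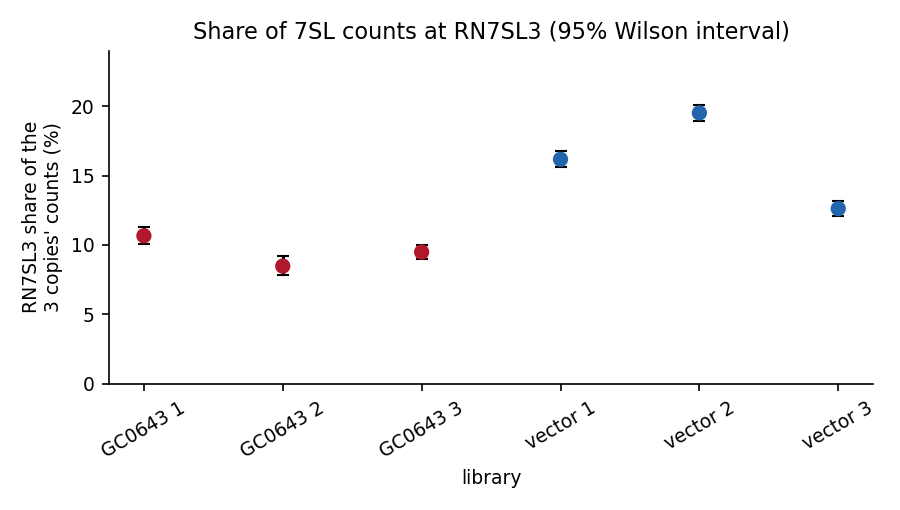
Share of RN7SL3 in the summed counts of RN7SL1, RN7SL2 and RN7SL3 (y axis, percent) in each of the 6 libraries (x axis), with 95% Wilson intervals. The GC0643 libraries (red) lie between 8.47% and 10.7% and the vector libraries (blue) between 12.6% and 19.5%.

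The summed counts of the 3 copies do not depend on which copy a read was assigned to, if each read was counted once. Whether reads with several matches were dropped or counted at more than 1 copy was not given in the sources used here. The sums came to 429, 310 and 637 CPM with GC0643 and 779, 830 and 587 CPM with vector. GC0643 replicate 3 lay above vector replicate 3, so the summed groups overlapped. The log2 fold change of the sum was -0.67 (SE 0.20), with means of 459 ± 166 and 732 ± 128 CPM (SD, n = 3 each). The human genome holds many further 7SL and 7SK copies, mostly pseudogenes, and the table lists 680 rows of the 7SL family, 240 of them with any count, and 294 of the 7SK family, 73 of them with any count. With all 7SL rows summed the log2 fold change was -0.64 (SE 0.19), and with all 7SK rows summed it was -0.13 (SE 0.23). The 7SK sum includes RN7SKP23, named here after its values were seen, whose annotated span is 4301 bases. RN7SKP23 had 59, 65 and 31 counts with GC0643 and 70, 49 and 76 with vector. The whole sum was 219, 166 and 207 with GC0643 and 299, 151 and 216 with vector. The further 7SL copies with the most counts were RN7SL4P and RN7SL5P, named here after their values were seen. RN7SL4P, on chromosome 3, had 525, 457 and 431 counts with GC0643 and 641, 389 and 519 with vector. RN7SL5P, on chromosome 9, had 113, 215 and 278 with GC0643 and 421, 477 and 234 with vector. Both overlapped between the groups, with log2 fold changes of -0.10 (SE 0.18) and -0.88 (SE 0.31).

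The proteins of the signal recognition particle gave the nearest comparison for 7SL, and their mRNAs lay on the other side of 0. SRP9 and SRP14 bind the end of 7SL that pauses translation, SRP54 binds the signal sequence, SRP19 helps SRP54 to join, and SRP68 and SRP72 form a further pair on the RNA. Of these 6 mRNAs, 4 were higher with GC0643 at an unadjusted p under 0.05 in edgeR's quasi-likelihood test, against 13.1% of all genes tested, and 0 were lower, against 5.26%. No mRNA of the 6 passed the adjusted p, as was so for every gene tested. Their median log2 fold change was 0.36, and 0.02 over all genes tested.

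SRP9 had the largest difference of the 6 before the correction for base composition. Its level was 145, 166 and 158 CPM with GC0643 and 107, 129 and 99.5 CPM with vector, so that the groups did not overlap. The log2 fold change was 0.48 (SE 0.13, edgeR unadjusted p = 0.00195, adjusted p = 0.260). SRP54 was at 28.0, 25.1 and 27.1 CPM with GC0643 and 18.9, 24.7 and 14.7 CPM with vector (log2 fold change 0.46, SE 0.17, edgeR unadjusted p = 0.0177, adjusted p = 0.260). SRP19, at a log2 fold change of 0.41 (edgeR unadjusted p = 0.0226, adjusted p = 0.260), did not overlap either. SRP14 overlapped, with 0.31 (edgeR unadjusted p = 0.0424, adjusted p = 0.267). SRP68 and SRP72 had log2 fold changes of 0.27 and 0.25 and did not pass (edgeR unadjusted p = 0.0701 and 0.0966). The receptor of the particle had log2 fold changes of -0.12 for SRPRA and 0.04 for SRPRB (edgeR unadjusted p = 0.333 and 0.793). These mRNAs are lower in G and C than 7SL, between 35.9% and 49.1% for the 6 particle proteins. With the correction for base composition 0 of the 6 had an unadjusted p under 0.05, against 2.86% of all genes higher and 3.25% lower, and their median was 0.15. SRP68 then had the largest value, 0.23, SRP9 had 0.14 and SRP72 lay at -0.04. The count was 6 without vector replicate 2, but 1 without vector replicate 1 or 3 and 2 without any of the GC0643 libraries.

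**Figure D4:**
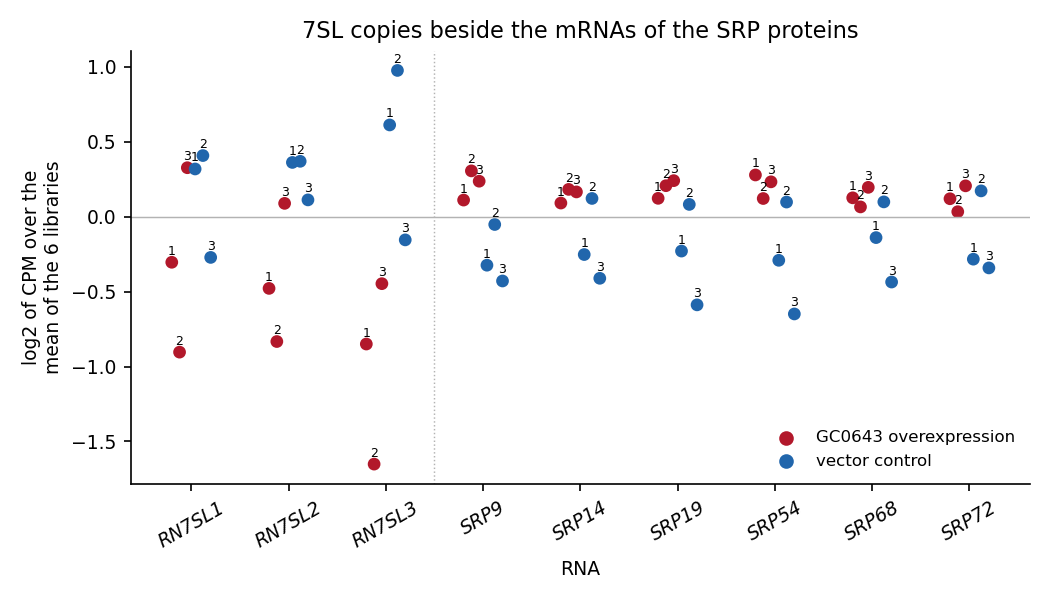
Log2 of the CPM in each library over the mean of the 6 libraries (y axis) for the 3 copies of 7SL and the 6 mRNAs of the signal recognition particle proteins (x axis). Numbers are replicates. The vector libraries (blue) are above the GC0643 libraries (red) for RN7SL2 and RN7SL3 and mostly below them for the mRNAs, with vector replicate 2 nearest to the GC0643 libraries in the mRNAs.

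Set side by side within a library, 7SL had fewer counts for each count of its protein mRNAs under GC0643 overexpression. Counts of 7SL per kilobase, over the summed counts per kilobase of the longest transcripts of the 6 mRNAs, gave ratios of 5.41, 3.68 and 7.54 with GC0643 and 12.7, 10.8 and 10.7 with vector. The groups did not overlap in this ratio. The mean log2 ratio was lower with GC0643 by a difference of -1.10, and by -1.35 to -0.83 with a single library left out, without GC0643 replicate 3 and without GC0643 replicate 2. The ratio rests on RNAs of unlike base composition and length, and 7SL entered it by the rule that chose it, so it carries no test. 7SL also ends without a poly(A) tail, unlike most mRNAs. Whether poly(A) RNA was selected was not given, and whether the libraries recovered RNA without such a tail alike was not tested.

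The mRNAs that work beside the 6 RNAs were read through lists of their partners, each count to be set against the 13.1% of all genes higher and the 5.26% lower. Counts with the correction for base composition are to be set against 2.86% higher and 3.25% lower. Among 14 mRNAs of the receptor of the signal recognition particle and the translocon, 3 were higher at an unadjusted p under 0.05 in edgeR's test and 0 lower, with a median log2 fold change of 0.09. The 3 were TRAM1 (0.47) and SEC63 (0.46), which help chains to enter the translocation channel, and SSR1 (0.40), a subunit of the translocon-associated complex. Another subunit of it, SSR3, had 0.34 (edgeR unadjusted p = 0.0568), and the lowest value was -0.17, for the channel subunit SEC61A1. All 3 calls were lost with the correction for base composition, at log2 fold changes of 0.15 for TRAM1, 0.16 for SEC63 and 0.14 for SSR1.

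Among 11 mRNAs of the 7SK particle and P-TEFb, 1 was higher and 3 lower, with a median of 0.16. CCNT2, a cyclin partner of CDK9, was the 1 higher, at a log2 fold change of 0.43 (edgeR unadjusted p = 0.014). The 3 lower were HEXIM2 (-0.65, edgeR unadjusted p = 0.0040), an inhibitor of P-TEFb that acts with 7SK, MEPCE (-0.34), which caps the 5′ end of 7SK, and the kinase CDK9 (-0.29). LARP7, which binds the 3′ end of 7SK, had 0.39 (edgeR unadjusted p = 0.052), and HEXIM1 had 0.02. Each of these had an adjusted p of at least 0.26 in edgeR. With the correction for base composition HEXIM2 was the only 1 of the 11 with an unadjusted p under 0.05 (-0.44, edgeR unadjusted p = 0.0114), while CCNT2 had 0.09, MEPCE -0.14 and CDK9 -0.17.

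Among 11 mRNAs of the RNase P and RNase MRP proteins, 0 were higher and 1 lower, RPP25L at -0.32 (edgeR unadjusted p = 0.044), and the largest positive value was 0.34 for RPP40. The median was -0.00, and 5 of the 11 were positive. RPP25 and POP7, further protein subunits, had -0.25 and -0.25. The call of RPP25L was lost with the correction for base composition, at -0.15. RNA polymerase III and its factors gave 7 higher and 1 lower of 32, with a median of 0.09. The 7 were SSB (0.56), the La protein that binds the ends of new polymerase III transcripts, SNAPC1 (0.56) and SNAPC3 (0.33), subunits of the factor that starts 7SK and RNase P RNA genes, ZNF143 (0.49) and POU2F1 (0.41), activators of such promoters, POLR3B (0.47), a core subunit of the polymerase, and BDP1 (0.47), a part of TFIIIB. MAF1, the repressor of the polymerase, was the 1 lower, at -0.33. With the correction for base composition 0 of the 32 had an unadjusted p under 0.05.

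Other RNAs, most of them without a long poly(A) tail, lay on both sides of 0. Of 42 further small structural RNAs matched in the table, 4 passed the filter. They were the telomerase RNA TERC at a log2 fold change of -0.26, the ribosomal RNA processing guide SNORD118 at 0.63 and the Cajal body RNAs SCARNA2 at -0.24 and SCARNA13 at -0.03, and 0 had an unadjusted p under 0.05 in edgeR's test. Their CPM summed over the 42 was 7.84, 5.52 and 8.14 with GC0643 and 8.18, 8.10 and 6.45 with vector. Of 29 replication-dependent histone mRNAs tested, 0 were higher and 3 lower, H1-2 (-0.61), H1-5 (-1.14) and H2BC11 (-0.64), with a median of -0.17. H1-4 had -0.86 and H3C6 had the highest value, 0.44, and neither passed (edgeR unadjusted p = 0.0576 and 0.116). With the correction for base composition 2 were higher, H3C6 (0.60) and H2AC11 (0.44), and 3 lower, H1-2 (-0.47), H2BC11 (-0.52) and H2BC21 (-0.42), while H1-5 no longer passed. Of all genes tested, 2.86% were higher and 3.25% lower in that corrected fit. Their summed CPM, over 54 genes, was 97.2, 88.8 and 91.4 with GC0643 and 104, 106 and 113 with vector, without overlap. Small nuclear RNA genes apart from RN7SK summed to 43.6, 48.7 and 45.3 CPM with GC0643 and 46.8, 45.2 and 41.5 CPM with vector. The mitochondrial ribosomal RNAs MT-RNR1 (0.02) and MT-RNR2 (-0.09) and the nuclear long noncoding RNAs MALAT1 (0.11) and NEAT1 (-0.11) had a median of -0.03, with 0 past an unadjusted p under 0.05.

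**Figure D5:**
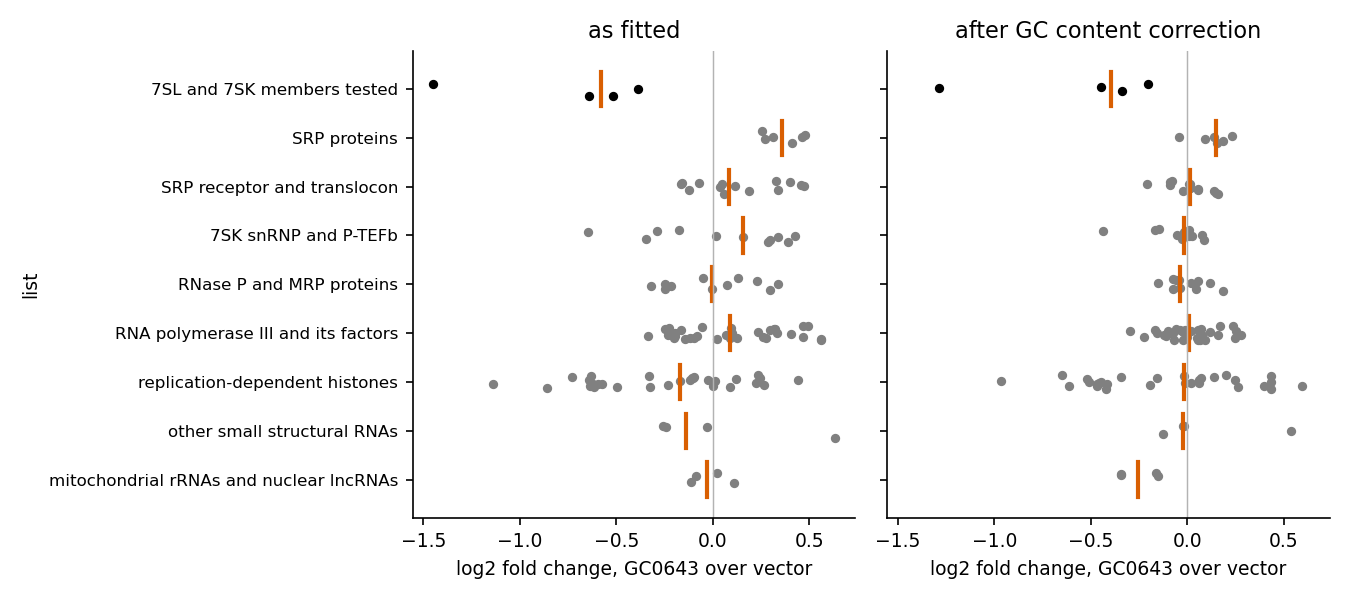
Log2 fold change, GC0643 over vector (x axis), of each gene tested in 9 lists (y axis), as fitted (left) and after the correction for G and C content (right). Points are genes and vertical bars are list medians. The 4 members tested lie below 0 in both panels, and the medians of the signal recognition particle proteins are 0.36 and 0.15.

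The genes whose levels followed the 6 libraries most closely were sought among 11045 genes with a mean over 10 CPM, by Pearson's r of log2 CPM. For the summed 7SL counts they were RPSAP15 (r = 0.948), a pseudogene of a ribosomal protein, RPL38 (r = 0.946), a ribosomal protein gene, and NRBP2 (r = 0.938). For RN7SK they were ZNF232 (r = 0.990), ARHGAP31 (r = 0.952) and HSF4 (r = 0.936). Spearman's rho was 0.943, 0.943 and 0.829 for the former and 0.943, 1 and 0.829 for the latter. Without the 2 libraries farthest from the median, r was 0.960, 0.737 and 0.906 for the former and 0.997, 0.903 and 0.959 for the latter. In each search 6 genes had an r over 0.9, each r rests on 6 libraries that share the same totals, and these genes are the highest of many, so the values are a description.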

How the data were processed

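The 6 libraries, 3 from HGC-27 cells with GC0643 and 3 from cells with the vector, were made per the labels from total RNA with the NEBNext Ultra RNA kit, which does not mark strand. Whether poly(A) RNA was selected was not given in the sources used here. The deposited values are raw read counts per Ensembl gene, which per the submitters' processing notes the authors made on GRCh38 with Trimmomatic 0.32, HISAT2 2.1.0 and featureCounts 2.0.0. The counting options for these libraries were not given in the sources used here, and without strand a gene and its antisense partner share reads.

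Of 58825 genes 58472 matched GENCODE 44. R 4.3.3, edgeR 4.0.16, limma 3.58.1, DESeq2 1.42.0, Python 3.11.15 and matplotlib 3.10.9 were used. After filterByExpr and TMM scaling, 19528 genes entered edgeR's quasi-likelihood test with group as the only term, with Benjamini-Hochberg adjustment over all of them. RMRP and RPPH1 were fitted without the filter. Base composition was corrected with a loess curve (span 0.3, prior count 1) of log2 values on the G and C content of the canonical transcript in each library. Scripts were tested on simulated data. The sequences of the 7SL copies are not reported here. The biological coefficient of variation was 14.8%. All library pairs differed by more than counting noise.

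The 6 RNAs, the gene lists and the tests were chosen with earlier results of these data known. The text names the 6 RNAs, their neighbours, the proteins of the signal recognition particle and its receptor, up to 4 genes of each other list with the smallest unadjusted p, the lowest and highest of each list, other list genes with an unadjusted p under 0.05 with or without the correction, named after their values were seen, and the 3 genes most like 7SL and RN7SK. Of 201 list symbols 196 were found.

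Replicate numbers did not pair the libraries, since the deviations of same-numbered libraries correlated at -0.22, -0.04 and -0.32. Alternatives were other tests, scalings and filters, a replicate block, the correction for base composition and leaving out each library. Added after the data were seen were the share of RN7SL3, the correction without vector replicate 2 and the fits with a library left out and no filter.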

Additional observations from a re-analysis of the deposited data

How the results depend on the processing

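All 6 RNAs kept a negative log2 fold change under every alternative that gave a value, with the exceptions of RN7SK at 0.96 without vector replicate 1 and RN7SL1 at 0.0041 with the correction for base composition and without vector replicate 2. With a single library left out the log2 fold change ranged from -0.95 to 0.96 for RN7SK and, without the filter, from -1.77 to -0.22 for RMRP. The number of genes past an adjusted p of 0.05, 0 in the main analysis, was 16 by the edgeR likelihood ratio test, 1 by DESeq2, 1 with DESeq2 size factors, 224 with no filter, and 0 to 3813 with a library left out. The count of signal recognition particle mRNAs at an unadjusted p under 0.05, 4 in the main analysis, was 0 with the correction, 2 with it and without vector replicate 2, and 1 to 6 with a library left out. Their median was 0.15 with the correction and 0.22 to 0.54 with a library left out. Over the other lists together the count of 19 became 32 with no filter, 6 with the correction, and 10 to 46 with a library left out, the highest without vector replicate 2.

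The replicate block gave log2 fold changes of -1.45 for RN7SL3, -0.69 for RN7SL2, -0.45 for RN7SL1 and -0.34 for RN7SK, 24 genes past the adjusted p, and a median of 0.38 for the signal recognition particle mRNAs. With the replicate block and the correction 2 genes passed, the particle mRNAs had a count of 0 and a median of 0.15, and the other lists had a count of 3. The numbers do not pair these libraries, so these fits say nothing of the size of an effect.

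Low counts limit RMRP and RPPH1, with 3 to 42 per library, and RN7SK, with 7 to 124. Why these counts were low was not tested.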
